A study of Mus musculus with 9 samples.

Results

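The genes described here are 10 costimulatory receptors of T cells, 7 of the tumour necrosis factor (TNF) receptor family and 3 of the immunoglobulin family to which CD28 belongs. The first family is represented by Tnfrsf9, Tnfrsf4, Tnfrsf18, Tnfrsf1b, Tnfrsf8, Tnfrsf25 and Cd27, and the second by Cd28, Icos and Cd226. They were chosen by gene symbol, and all 10 were found among the 37022 genes of the deposited tables. Each gene is represented by 1 transcript, that whose gene-body signal, averaged over all 9 libraries, was the largest.

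Costimulatory receptors add a signal to that of the T cell receptor and so shape how far a T cell divides, survives and makes cytokines. Receptors of the TNF family bind trimeric ligands, mostly on antigen-presenting cells, and recruit TRAF adaptor proteins that lead to NF-kappa B and MAP kinases. CD28 and ICOS bind B7-family ligands and recruit phosphoinositide 3-kinase, while CTLA-4 competes with CD28 for the same ligands. Several of these receptors are absent from resting T cells and appear after stimulation, and agonist antibodies to some of them have been tried against T cell exhaustion, the loss of function under persistent stimulation.

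The data are nascent RNA libraries of mouse CD8+ T cells, in 3 groups of 3. The groups were acute stimulation (Acute), chronic stimulation (Chronic), and chronic stimulation with MEK inhibition (ChronicMEKi), MEK being the kinase that activates ERK in the MAP kinase cascade. All 9 libraries came from cells given 0.2 mM 5-ethynyl uridine, a uridine analogue built into new RNA, for 30 minutes, after which the labelled RNA was captured and sequenced. The labels do not name the inhibitor or the mouse strain, do not say how or for how long cells were stimulated, and do not say whether the libraries of a group came from separate cultures or animals. The p-values therefore measure the spread between these libraries, which may be technical. In such bulk samples, fewer cells of a type and less RNA per cell cannot be told apart.

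The values are deposited signal, which is not a read count, in a gene-body table and in a table of the pause region near the transcription start. With 1 row per gene, gene-body signal summed to 48600000 to 52220000 per library, and depth in reads is unknown. Differences between groups are limma log2 fold changes of scaled signal, called at an adjusted p under 0.05 over the 15942 genes tested in the gene body. They are relative to a trimmed mean of all genes. Ribosomal RNA-like genes held 19.1 to 22.3% of the gene-body signal in Acute, 34.2 to 40.6% in Chronic and 29.0 to 36.1% in ChronicMEKi. The median log2 fold change of all genes between Chronic and Acute was -0.016 with the trimmed mean and -0.498 with library totals, and between ChronicMEKi and Chronic it was 0.037 and 0.141. Of all genes called between Chronic and Acute, 2875 were higher and 2528 lower with the trimmed mean, and 1096 higher and 6846 lower with library totals. Between ChronicMEKi and Acute the split was 2291 to 1827 with the trimmed mean and 955 to 4965 with library totals, and between ChronicMEKi and Chronic 1583 to 1219 against 1769 to 741.

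All 10 receptors passed the filter in the gene body. Between Chronic and Acute, 6 of them rose (Tnfrsf9, Tnfrsf8, Tnfrsf4, Icos, Cd28 and Tnfrsf18), 2 fell (Tnfrsf25 and Tnfrsf1b), and Cd27 and Cd226 did not pass the test. Over all genes tested, 33.9% were called in this comparison, 18% higher and 15.9% lower. Between ChronicMEKi and Chronic, 3 rose (Tnfrsf1b, Tnfrsf18 and Tnfrsf25) and 5 fell (Cd28, Tnfrsf9, Icos, Tnfrsf8 and Cd226), against 17.6% of all genes called, 9.93% higher and 7.65% lower. Between ChronicMEKi and Acute, 5 rose and 2 fell, against 25.8% of all genes called, 14.4% higher and 11.5% lower. The libraries of the 2 groups did not overlap for 9 receptors between Chronic and Acute (44.2% of all genes tested), for 8 between ChronicMEKi and Chronic (32.2%) and for 9 between ChronicMEKi and Acute (42%). The median log2 fold change of the 10 genes was 0.59, -0.16 and 0.09 in the 3 comparisons, beside -0.016, 0.037 and 0.003 over all genes tested.

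The split into rises and falls depended on the scaling. With library totals, 3 of the 10 receptors were higher and 4 lower between Chronic and Acute, since the rises of Tnfrsf18, Cd28 and Icos no longer passed the test and Cd27 and Cd226 were then called lower. Between ChronicMEKi and Acute, library totals and the deposited scale gave 4 higher and 5 lower, where the trimmed mean gave 5 and 2. Between ChronicMEKi and Chronic the counts were 3 higher and 5 lower under library totals too. The 3 comparisons share libraries, so a fall from Chronic to ChronicMEKi and a rise from Acute to Chronic are not independent measurements.

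**Figure D1:**
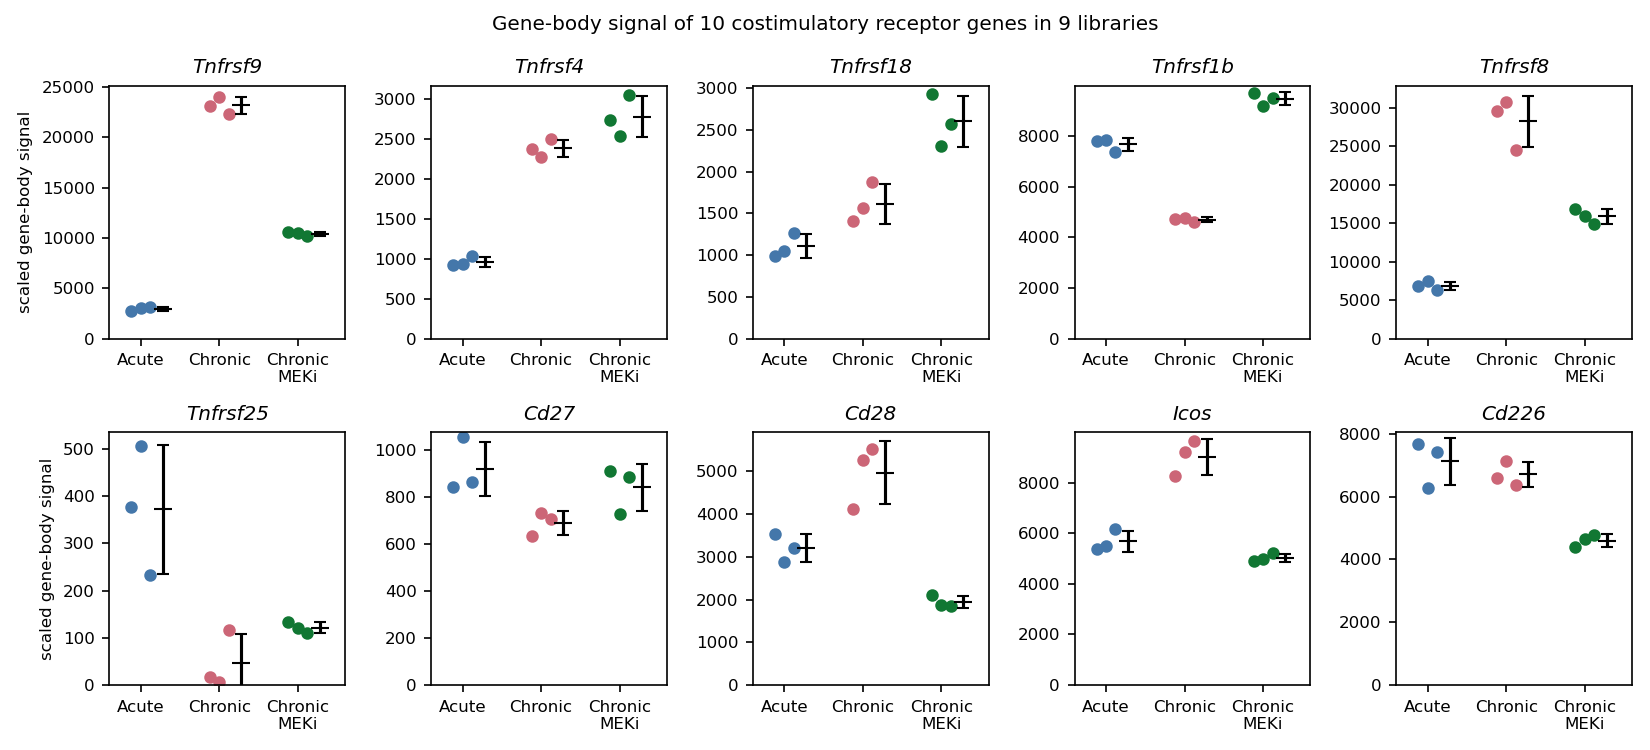
Scaled gene-body signal (vertical axis, from 0, with its own range for each gene) of the 10 receptor genes in each of the 9 libraries, by group. Points are libraries and the black marks are the mean ± SD of 3. Tnfrsf9 and Tnfrsf8 are highest in Chronic, Tnfrsf1b is lowest there, and Cd28 and Cd226 are lowest in ChronicMEKi.

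Tnfrsf9 encodes CD137, a receptor induced on T cells by stimulation, which binds TRAF1 and TRAF2 and favours the survival of CD8+ T cells. Its gene-body signal was 2755, 3055 and 3115 in the Acute libraries, 23149, 24058 and 22360 in Chronic, and 10559, 10485 and 10174 in ChronicMEKi. The 3 groups did not overlap, and Chronic was the highest and Acute the lowest. The mean rose 7.79-fold from Acute to Chronic, or by 2.96 on the log2 scale (SE 0.082, limma adjusted p = 5.47e-14), which placed Tnfrsf9 77th from the top of the genes tested. It was lower by a factor of 0.449 in ChronicMEKi than in Chronic (log2 fold change -1.16, SE 0.082, limma adjusted p = 1.12e-08). ChronicMEKi still stood 3.50-fold above Acute (log2 fold change 1.81, limma adjusted p = 3.53e-11).

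The gene spans chromosome 4, 150914562 to 150946102, on the plus strand of GRCm38 (mm10), and the row used is the protein-coding transcript ENSMUST00000030808.9, whose start lies 5628 bases inside the gene's first start. The row used lies within the much longer gene Camta1 on the other strand, while the first start of Tnfrsf9 lies outside it. The deposited signal does not keep strands apart. Over Camta1 outside Tnfrsf9, the signal per kb was 4.55% of that over Tnfrsf9 in Acute, 0.537% in Chronic and 1.35% in ChronicMEKi. All 9 annotated Tnfrsf9 rows with a mean of at least 50 differed in the same direction, by 2.61 to 3.26 between Chronic and Acute. The nearest tested gene, Park7, starts 0.125 kb away on the other strand, and its log2 fold change in that comparison was -0.16 (limma adjusted p = 0.391).

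Tnfrsf9 has 8 annotated starts, which allow its signal near each start to be read separately. The starts fall into an outer set, from the first start to 10744 bases downstream, and an inner set 13356 to 15235 bases downstream. The pause-region signal at the start of the row used was 9.71, 2.97 and 3.95 in Acute, 214.4, 151.8 and 175.1 in Chronic, and 63.2, 90.7 and 60.3 in ChronicMEKi. At the inner start 13437 bases downstream it was 80.3, 133.5 and 107.7 in Acute, 725.8, 697.0 and 640.9 in Chronic, and 297.3, 327.2 and 283.4 in ChronicMEKi. At each of these starts the groups were in the same order and did not overlap. Acute libraries had little signal at the outer start, and several times more at the inner one. An inner start lies inside the transcripts that begin upstream of it, so its signal can include RNA from those.

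**Figure D2:**
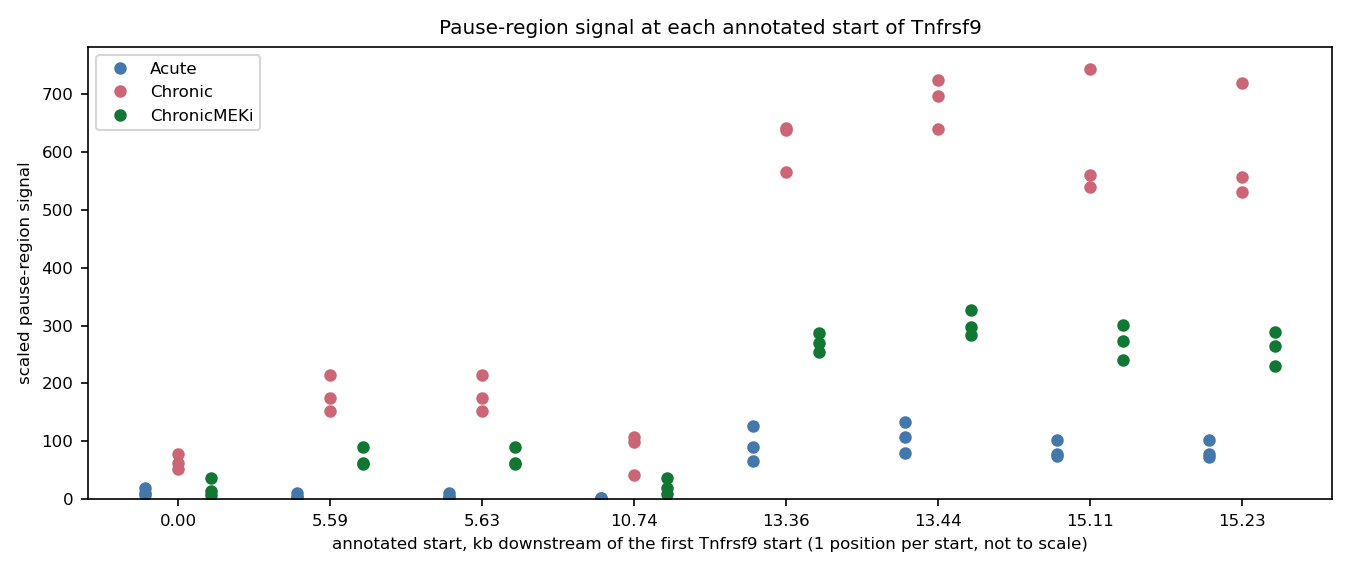
Scaled pause-region signal (vertical axis) at each of the 8 annotated starts of Tnfrsf9, which are placed side by side in order and labelled with their distance in kb from the first start. Each point is 1 library, and Chronic libraries are the highest at every start, with the largest values at the 4 starts from 13356 bases on.

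RefSeq promoters (build GRCm38.p6, 250 bases before to 50 after a start) were present for 7 of the 10 receptors, 9 promoters in all. Both Tnfrsf9 promoters are shown because the start-proximal signal differed between groups at both, and those of Tnfrsf8 and Tnfrsf1b because these 2 adjoining genes changed in opposite directions. Capitals mark matches to a kappa B motif, searched in 3 forms, or to the AP-1 motif (TGANTCA), on both strands.
Tnfrsf9 inner start, chr4:150927749-150928048, plus strand: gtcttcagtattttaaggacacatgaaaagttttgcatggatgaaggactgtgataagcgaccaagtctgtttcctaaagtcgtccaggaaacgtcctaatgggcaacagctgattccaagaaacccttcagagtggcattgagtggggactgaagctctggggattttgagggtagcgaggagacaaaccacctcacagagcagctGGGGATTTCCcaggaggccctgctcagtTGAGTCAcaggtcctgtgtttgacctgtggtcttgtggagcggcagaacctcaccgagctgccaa
Tnfrsf9 outer start, chr4:150919905-150920204, plus strand: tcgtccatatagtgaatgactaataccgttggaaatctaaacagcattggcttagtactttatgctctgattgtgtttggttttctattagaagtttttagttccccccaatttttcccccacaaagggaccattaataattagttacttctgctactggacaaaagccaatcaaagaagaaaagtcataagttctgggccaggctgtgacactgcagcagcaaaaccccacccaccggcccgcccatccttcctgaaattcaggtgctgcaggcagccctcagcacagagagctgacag
Tnfrsf8, chr4:145315115-145315414, minus strand: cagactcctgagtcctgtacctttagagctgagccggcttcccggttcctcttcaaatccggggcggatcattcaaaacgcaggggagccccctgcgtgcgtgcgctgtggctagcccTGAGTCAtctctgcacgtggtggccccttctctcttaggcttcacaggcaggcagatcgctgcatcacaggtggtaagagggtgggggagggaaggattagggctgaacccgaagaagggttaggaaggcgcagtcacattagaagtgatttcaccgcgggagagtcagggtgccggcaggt
Tnfrsf1b, chr4:145246821-145247120, minus strand: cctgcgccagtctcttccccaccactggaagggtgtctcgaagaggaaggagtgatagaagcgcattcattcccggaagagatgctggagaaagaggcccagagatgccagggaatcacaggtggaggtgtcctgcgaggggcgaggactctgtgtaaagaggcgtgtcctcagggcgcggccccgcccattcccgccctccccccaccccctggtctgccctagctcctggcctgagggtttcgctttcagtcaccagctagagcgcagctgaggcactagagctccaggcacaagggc

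The inner Tnfrsf9 promoter held GGGGATTTCC from base -43 to -34 before the start and TGAGTCA from base -15 to -9. The Tnfrsf8 promoter held TGAGTCA from base -132 to -126. The kappa B form that GGGGATTTCC matches occurred in 1 of the 9 receptor promoters and in 0.3988% of the 32851 promoters of the table, and TGANTCA in 2 of 9 and in 7.808%. The other kappa B forms searched occurred in none of the 9 and in 0.4109% and 0.0396% of all promoters. The ETS forms ACCGGAAGT and CAGGAAGT also occurred in none of the 9, and in 1.0959% and 3.3271% of all. The NFAT core GGAAAA occurred in 4 of the 9 and in 23.357% of all. No match overlapped another, and a match of letters is a description of the window, not a bound site.

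Tnfrsf8 encodes CD30, a TRAF-binding receptor of activated lymphocytes. Gene-body signal of Tnfrsf8 reached 6798, 7424 and 6261 in Acute, 29586, 30712 and 24495 in Chronic, and 16890, 15946 and 14921 in ChronicMEKi. Every Chronic library lay above every ChronicMEKi library, and those above every Acute library. Tnfrsf8 rose 4.14-fold from Acute to Chronic (log2 fold change 2.05, SE 0.098, limma adjusted p = 2.59e-11) and was lower by a factor of 0.563 in ChronicMEKi than in Chronic (log2 fold change -0.82, SE 0.098, limma adjusted p = 6.27e-06). ChronicMEKi was 2.33-fold above Acute (limma adjusted p = 3.34e-08).

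Tnfrsf1b encodes TNFR2, the TNF receptor of lymphocytes, which lacks a death domain and signals through TRAF2. Its gene-body signal was 7801, 7861 and 7384 in Acute, 4730, 4770.0 and 4593 in Chronic, and 9693, 9189 and 9511 in ChronicMEKi. Chronic was the lowest group and ChronicMEKi the highest, without overlap. Tnfrsf1b fell by 0.71 on the log2 scale from Acute to Chronic (SE 0.080, limma adjusted p = 1.53e-06) and was 2.01-fold higher in ChronicMEKi than in Chronic (log2 fold change 1.01, SE 0.080, limma adjusted p = 4.34e-08). For ChronicMEKi against Acute the log2 fold change was 0.30 (limma adjusted p = 0.009), but -0.083 (adjusted p = 0.629) with library totals and -0.042 (adjusted p = 0.818) on the deposited scale. That call was also lost without Acute library 1 (adjusted p = 0.0663), Acute library 3 (0.106) or ChronicMEKi library 1 (0.101).

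Tnfrsf1b (chromosome 4, 145213463 to 145246870) and Tnfrsf8 (145267137 to 145315164) both lie on the minus strand and are 20.3 kb apart. These neighbours thus changed in opposite directions in both comparisons with Chronic. On the other side of Tnfrsf1b, Vps13d, 18.5 kb away, fell by 0.35 between Chronic and Acute (limma adjusted p = 0.00685). The row used for Tnfrsf8 is an annotated transcript of nonsense-mediated decay type, ENSMUST00000123027.1, which spans nearly the whole gene, and that for Tnfrsf1b is the protein-coding ENSMUST00000030336.10.

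Tnfrsf4 encodes OX40, which prolongs the survival of activated T cells. Gene-body signal of Tnfrsf4 was 920.8, 938.7 and 1034 in Acute, 2379.8, 2279.8 and 2500.0 in Chronic, and 2746, 2545 and 3061 in ChronicMEKi. All Chronic and ChronicMEKi libraries lay above all Acute libraries, and the ChronicMEKi libraries just above the Chronic ones. Tnfrsf4 rose 2.47-fold from Acute to Chronic (log2 fold change 1.30, SE 0.11, limma adjusted p = 3.56e-08) and 2.89-fold from Acute to ChronicMEKi (log2 fold change 1.52, limma adjusted p = 1.05e-08). The difference between ChronicMEKi and Chronic, 0.22 with an SE of 0.11, did not pass the test (limma adjusted p = 0.204), although the groups did not overlap.

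Tnfrsf18 encodes GITR, a receptor of activated and regulatory T cells. Its gene-body signal was 992.5, 1053 and 1266 in Acute, 1408, 1561 and 1879 in Chronic, and 2929, 2313 and 2569 in ChronicMEKi. The groups rose in that order and did not overlap. The log2 fold change was 0.55 from Acute to Chronic (SE 0.137, limma adjusted p = 0.00444), 0.69 from Chronic to ChronicMEKi (SE 0.137, limma adjusted p = 0.00129) and 1.24 from Acute to ChronicMEKi (limma adjusted p = 1.93e-06). With library totals, the first of these was 0.057 (limma adjusted p = 0.777).

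Tnfrsf4 (chromosome 4, 156013843 to 156016612, ENSMUST00000030952.5) and Tnfrsf18 (156026164 to 156028895, ENSMUST00000103173.9) lie on the plus strand, 9.55 kb apart. Both were highest in ChronicMEKi, although for Tnfrsf4 the difference from Chronic did not pass the test, whereas Tnfrsf9 and Tnfrsf8 were highest in Chronic. Tnfrsf18 lies within Gm16008, whose signal per kb outside Tnfrsf18 was 58.8% of that over Tnfrsf18 in Acute, 44.8% in Chronic and 43.2% in ChronicMEKi. In signal per kb, that part of Gm16008 had 237.7 ± 36.5 in Acute, 265.3 ± 13.9 in Chronic and 411.6 ± 82.9 in ChronicMEKi (SD, n = 3). Tnfrsf18 had 404.1, 591.6 and 953.2, so both were highest in ChronicMEKi. The value of Tnfrsf18 and its changes are therefore uncertain, since reads of both genes could enter it. Between Chronic and Acute, Sdf4, 0.233 kb from Tnfrsf4, had a value of -0.20 on the log2 scale (limma adjusted p = 0.0635).

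**Figure D3:**
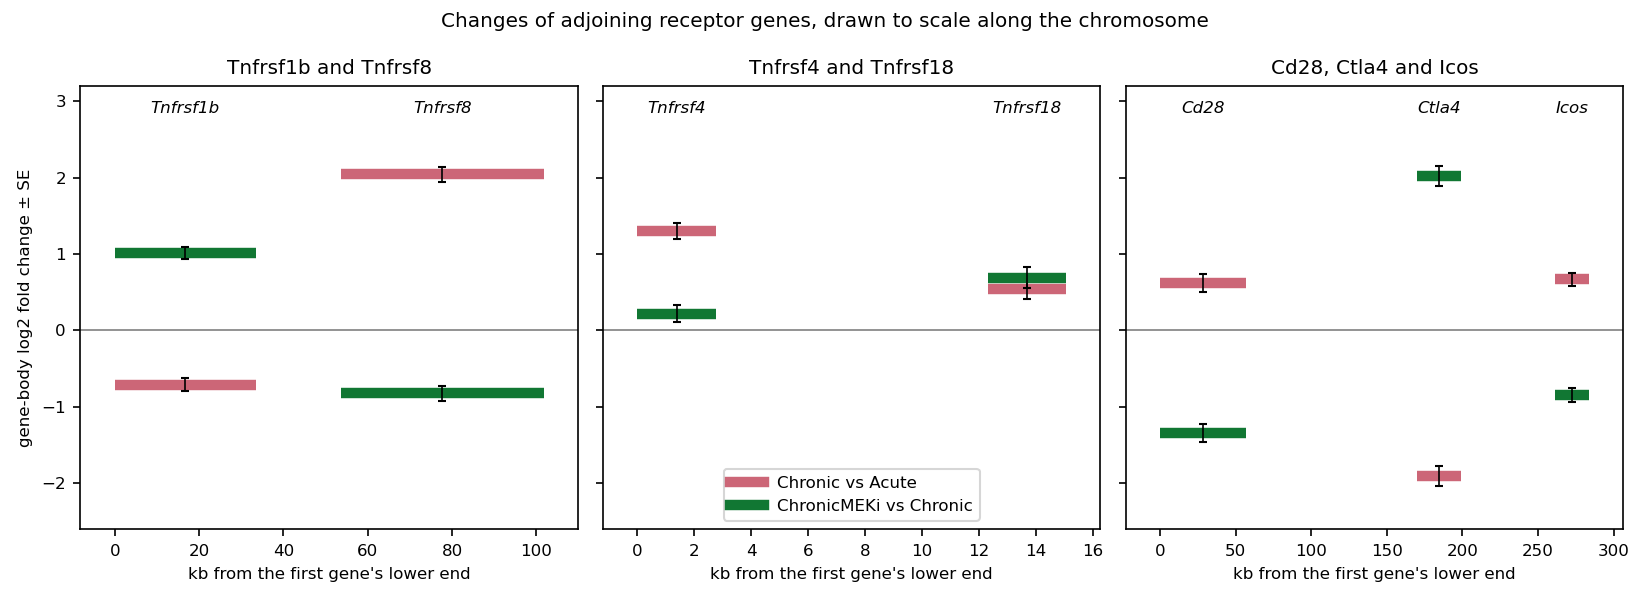
Gene-body log2 fold change ± SE (vertical axis) of adjoining receptor genes at 3 loci, with each gene drawn to scale as a bar from its start to its end in kb from the lower end of the first gene. Tnfrsf1b and Tnfrsf8 lie on opposite sides of 0 in both comparisons, Tnfrsf4 and Tnfrsf18 on the same side, and Ctla4 opposite to Cd28 and Icos.

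Tnfrsf25 encodes DR3, the receptor of TL1A and the only one of the 7 TNF receptors here with a death domain. Its gene-body signal was low: 377.8, 506.1 and 233.1 in Acute, 16.9, 7.26 and 116.9 in Chronic, and 133.0, 121.4 and 110.4 in ChronicMEKi. Acute libraries lay above all others, while Chronic library 3 lay within the ChronicMEKi range and the other 2 Chronic libraries far below it. Tnfrsf25 fell by 3.49 on the log2 scale from Acute to Chronic (SE 0.643, limma adjusted p = 0.00073), and this call held under all 19 alternatives run, at -4.466 to -2.801. As 2 of its Chronic libraries were below the signal of 50 that 3 libraries had to reach, it passed the filter mainly through the other groups, but the call was also made with no filter. The rise from Chronic to ChronicMEKi, 1.98 (SE 0.643, limma adjusted p = 0.0489), held in 6 of 19 alternatives. It was 1.289 without Chronic library 2 and 2.954 without Chronic library 3, the lowest and highest of them. Their adjusted p ranged from 1e-04 to 0.185, and leaving out any 1 library other than Chronic library 3 ended the call. Tnfrsf25 (chromosome 4, 152115934 to 152120119, plus strand, ENSMUST00000025706.9) ends 0.212 kb from Espn on the other strand, and Espn also fell, by 1.86 from Acute to Chronic (limma adjusted p = 2.14e-07). Plekhg5, 0.534 kb away on the other side and on the same strand as Tnfrsf25, had 0.01 in that comparison (limma adjusted p = 0.975).

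Cd27 encodes a TRAF-binding receptor for CD70 that is present on naive and memory T cells. Scaled gene-body signal of Cd27 was 843.3, 1053 and 862.2 in Acute, 633.6, 730.5 and 708.2 in Chronic, and 911.6, 727.3 and 886.4 in ChronicMEKi. Every Chronic library lay below every Acute library, and ChronicMEKi overlapped both. The log2 fold change between Chronic and Acute was -0.41 (SE 0.154, limma adjusted p = 0.0509), just outside the threshold. It passed with a filter at a signal of 200 (adjusted p = 0.0336), without ChronicMEKi library 2 (0.0448), and under each of the other 3 scalings, for example -0.893 with library totals (adjusted p = 0.000112). Neither ChronicMEKi against Chronic (0.28, limma adjusted p = 0.254) nor ChronicMEKi against Acute (-0.13, limma adjusted p = 0.604) passed. Cd27 (chromosome 6, 125232622 to 125237010, minus strand, ENSMUST00000032486.12) lies within Vamp1, whose signal per kb outside Cd27 was 45.8% of that over Cd27 in Acute, 51% in Chronic and 63.2% in ChronicMEKi, so its value is uncertain too.

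Cd28 encodes the main costimulatory receptor of naive T cells. In the gene body, Cd28 signal was 3524, 2871 and 3212 in Acute, 4119, 5273 and 5509 in Chronic, and 2111, 1872 and 1854 in ChronicMEKi. The groups did not overlap, and ChronicMEKi was the lowest. Cd28 rose 1.55-fold from Acute to Chronic (log2 fold change 0.63, SE 0.118, limma adjusted p = 0.000407), which with library totals was 0.136 (limma adjusted p = 0.434). It was lower by a factor of 0.392 in ChronicMEKi than in Chronic (log2 fold change -1.34, SE 0.118, limma adjusted p = 1.6e-07), the largest fall in that comparison among the 10 receptors. ChronicMEKi also lay below Acute (log2 fold change -0.72, limma adjusted p = 0.000164).

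Icos encodes an inducible relative of CD28 that binds ICOS ligand. For Icos, gene-body signal was 5377, 5503 and 6148 in Acute, 8245, 9211 and 9628 in Chronic, and 4894, 4973 and 5212 in ChronicMEKi. Chronic libraries stood above all others, and ChronicMEKi just below Acute. Icos rose 1.59-fold from Acute to Chronic (log2 fold change 0.67, SE 0.090, limma adjusted p = 1.25e-05), or by 0.178 with library totals (limma adjusted p = 0.24). It was lower by a factor of 0.557 in ChronicMEKi than in Chronic (log2 fold change -0.84, SE 0.090, limma adjusted p = 1.89e-06). Between ChronicMEKi and Acute the log2 fold change was -0.17 (limma adjusted p = 0.18), and of the alternatives run it passed in 3, the other scalings, at -0.342 to -0.557.

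Cd28, Ctla4 and Icos lie in this order on the plus strand of chromosome 1, at 60716800 to 60773359, 60887000 to 60915832 and 60977927 to 61000320. Ctla4, which encodes the inhibitory receptor for the CD28 ligands, had 3745, 3149 and 4060 in Acute, 837.6, 919.2 and 1170.2 in Chronic, and 3722, 3700.2 and 4399 in ChronicMEKi. Its Chronic libraries were thus the low group. It fell by 1.90 on the log2 scale from Acute to Chronic (SE 0.132, limma adjusted p = 2.59e-09) and rose by 2.02 from Chronic to ChronicMEKi (SE 0.132, limma adjusted p = 3.81e-09). Both changes were opposite in direction to those of Cd28 and Icos on its 2 sides. On the other side of Cd28, Raph1, 150 kb away, rose by 1.81 between Chronic and Acute (limma adjusted p = 4.15e-08). The Icos row (ENSMUST00000102827.3) holds the gene Gm37039 on the same strand, so its signal can include that gene's.

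Cd226 encodes DNAM-1, an adhesion and costimulatory receptor for PVR and nectin-2. Signal over the Cd226 gene body was 7667, 6277 and 7437 in Acute, 6587, 7150.2 and 6388 in Chronic, and 4389.7, 4637 and 4786 in ChronicMEKi. Acute and Chronic overlapped, and ChronicMEKi lay below both. Between Chronic and Acute, its log2 fold change was -0.08 (SE 0.094, limma adjusted p = 0.527), which was -0.574 (limma adjusted p = 0.00107) with library totals. It fell by 0.54 from Chronic to ChronicMEKi (SE 0.094, limma adjusted p = 0.000398) and by 0.63 from Acute to ChronicMEKi (limma adjusted p = 6.56e-05). Cd226 lies on chromosome 18, and its pause-region signal at the start of the row used was 0 to 3.50 in the 9 libraries, too low to be tested. Of its annotated starts, the one 29134 bases downstream of the first held the most signal, where the group means were 78.9 ± 24.1 for Acute, 79.2 ± 58.3 for Chronic and 42.2 ± 18.7 for ChronicMEKi (SD over 3 libraries).

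**Figure D4:**
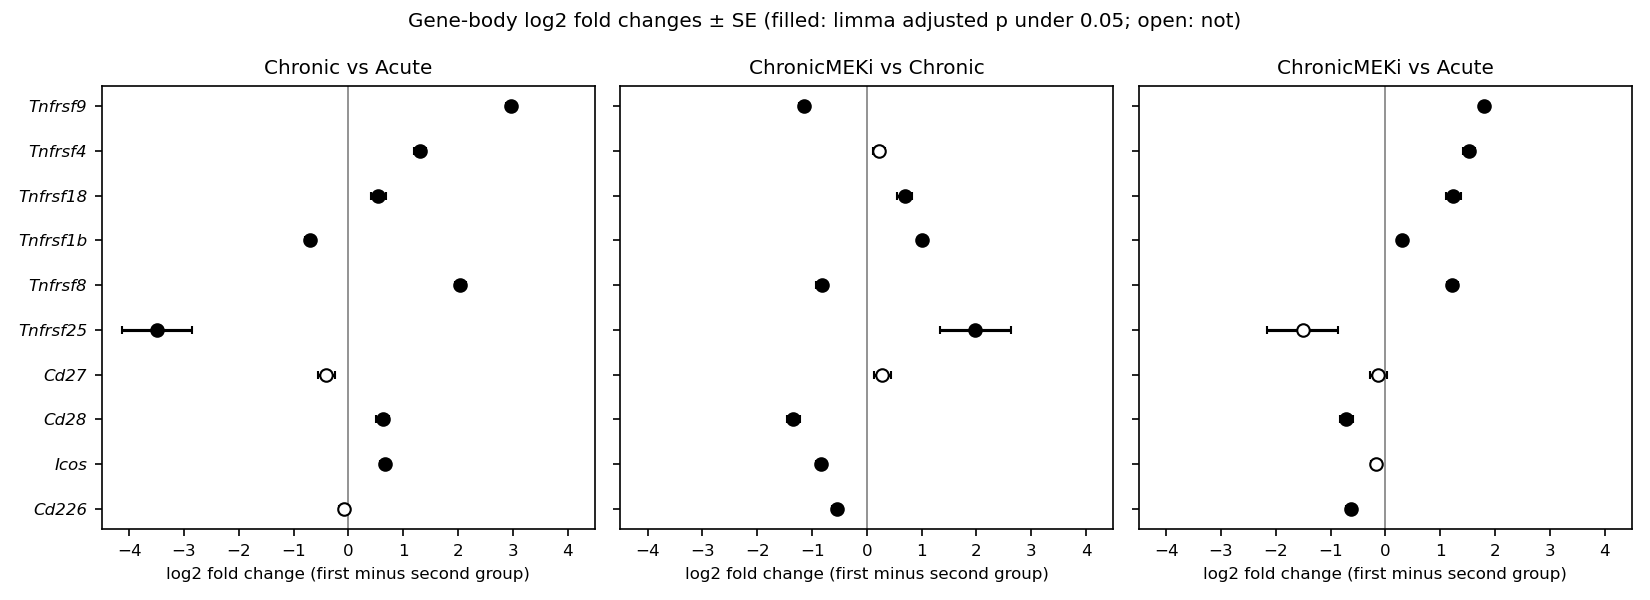
Gene-body log2 fold change ± SE (horizontal axis) of the 10 receptor genes (rows) in the 3 comparisons (panels). Filled points passed a limma adjusted p of 0.05 and open points did not. Tnfrsf9 is farthest to the right in Chronic vs Acute, and Tnfrsf25 has the widest error bars.

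Per kb of the transcript's genomic span, the receptors differed widely in gene-body signal. In Acute, Tnfrsf18 (404.1 ± 52.5 signal per kb, SD, n = 3) and Tnfrsf4 (348.2 ± 21.995) were the highest, and Tnfrsf25 (88.9 ± 32.6) and Cd226 (74.9 ± 7.83) had the lowest means. The Acute range of Tnfrsf25 overlapped those of Cd226, Tnfrsf9 and Cd28, so its place among them is not resolved. Tnfrsf9 stood at 114.8 ± 7.43 in Acute, above 82% of all genes tested. In Chronic it stood at 894.9 ± 32.8, above 98.4% of them, followed by Tnfrsf4 at 861.6 ± 39.8. The ranges of Tnfrsf9 and Tnfrsf4 in Chronic overlapped, so their order is not resolved.

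The order below them in Chronic was Tnfrsf18 (591.6 ± 88.0 signal per kb), Tnfrsf8 (588.5 ± 69.0), Icos (403.1 ± 31.7), Cd28 (184.0 ± 27.5), Cd27 (157.4 ± 11.6), Tnfrsf1b (140.6 ± 2.78), Cd226 (70.5 ± 4.15) and Tnfrsf25 (11.2 ± 14.5). Of these neighbours, Tnfrsf18 and Tnfrsf8 overlapped in range, as did Cd28 and Cd27. In ChronicMEKi, Tnfrsf4 (1005.1 ± 93.9 signal per kb) and Tnfrsf18 (953.2 ± 113) led and overlapped, Tnfrsf9 followed at 401.6 ± 7.89, and Tnfrsf25 was the lowest at 29.0 ± 2.696. The spans include introns, and the values of Tnfrsf18, Cd27 and Icos can include overlapping genes.

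Near the transcription start, 8 of the 10 receptors had enough signal to be tested, all but Tnfrsf25 and Cd226. Between Chronic and Acute, Tnfrsf8 rose by 1.60 on the log2 scale (SE 0.245, limma adjusted p = 3.36e-05), while Tnfrsf1b fell by 1.13 (SE 0.374, limma adjusted p = 0.0485). At its outer start, Tnfrsf9 passed the filter only through Chronic and ChronicMEKi libraries, so a difference from Acute was required there and no test of it is given. With the start of largest pause-region signal, an alternative chosen after seeing the data, Tnfrsf9 rose by 2.69 (limma adjusted p = 1.56e-09). With that choice Cd27 fell by 1.115 (limma adjusted p = 0.0152), while at the start of the row used its difference was -0.15 (limma adjusted p = 0.883). Tnfrsf8 and Tnfrsf1b had the directions seen in the gene body, and 10.7% of the 7678 genes tested in the pause region were called, 5.37% higher and 5.35% lower. The call for Tnfrsf1b held in 6 of 19 alternatives, and leaving out any Acute or ChronicMEKi library or Chronic library 2 ended it. Tnfrsf4, which rose in the gene body, had a pause-region difference of 0.18 (SE 0.25, limma adjusted p = 0.741), with 189.8, 180.4 and 313.3 in Acute and 241.6, 197.3 and 328.0 in Chronic, which overlapped.

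Between ChronicMEKi and Chronic, Cd28 (-1.33, SE 0.352, limma adjusted p = 0.0311) and Icos (-1.09, SE 0.287, limma adjusted p = 0.0304) fell in the pause region, where 3% of all genes were called, 1.56% higher and 1.43% lower. Tnfrsf9 had -1.29 (limma adjusted p = 0.169) at its outer start. With the start of largest pause-region signal it was -1.155 (limma adjusted p = 0.00301). The falls of Cd28 and Icos were lost with library totals (limma adjusted p = 0.173 and 0.163), on the deposited scale (0.151 and 0.129) and with no filter (0.287 and 0.162). Both were also lost when any ChronicMEKi library, or Chronic library 2 or 3, was left out, and that of Cd28 also without Chronic library 1. Between ChronicMEKi and Acute, where 5.95% were called, 3.44% higher and 2.51% lower, Tnfrsf4 rose by 0.95 (limma adjusted p = 0.0196) and Icos fell by 1.02 (limma adjusted p = 0.0299). The groups overlapped for Icos, with 345.2, 188.1 and 553.4 in Acute and 194.4, 162.4 and 131.1 in ChronicMEKi. The call for Tnfrsf4 was lost without Acute library 1 or 2 or any ChronicMEKi library, and that for Icos without Acute library 1 or 3 or ChronicMEKi library 2 or 3. That for Tnfrsf4 was also lost with library totals (0.607, adjusted p = 0.201), with no filter (0.133) and with the start of largest signal (0.0561). That for Icos was lost on the deposited scale (-0.895, adjusted p = 0.084), with totals without ribosomal RNA-like rows (0.0506) and with no filter (0.138). Tnfrsf9 at its outer start is again not tested against Acute, and at the start of largest signal it rose by 1.534 (limma adjusted p = 8.19e-05). Tnfrsf8 lay at the threshold without passing (0.79, limma adjusted p = 0.05), and it stayed outside in 11 of 20 alternatives.

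The balance of pause-region and gene-body signal, taken per library as the difference of their log2 values, was tested for the same 8 receptors. No receptor and none of the 7413 genes tested passed in any comparison with limma, beside 749, 394 and 591 genes at an unadjusted p under 0.05. Tnfrsf9 entered through its outer start, which passed the filter only through Chronic and ChronicMEKi libraries, so its balance against Acute is not given. Among the other receptors, the largest difference between Chronic and Acute was -1.13 for Tnfrsf4 (SE 0.273, limma adjusted p = 0.259).

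The ligands of these receptors were measured in the same T cells, although most are best known from antigen-presenting cells. Of 13 ligand genes, 10 passed the filter, and Tnfsf18, Tnfsf15 and Cd70, the ligands of GITR, DR3 and CD27, were at 0 to 33.9 signal in every library. Between Chronic and Acute, 3 ligands rose and 5 fell, with a median of -0.50, against 18% of all genes called higher and 15.9% lower. Tnfsf4, the OX40 ligand, rose by 2.72 on the log2 scale (SE 0.297, limma adjusted p = 9.97e-07) and, like its receptor gene Tnfrsf4, was higher in Chronic. Tnfsf9, the CD137 ligand, is the second of the 3. All its Acute libraries were below the filter's minimum of 50 and all Chronic and ChronicMEKi libraries above it, so it passed only through the groups where it is high and its test is not given. Cd80 rose by 0.78 (limma adjusted p = 0.00243), but by 0.296 (adjusted p = 0.2) with library totals.

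The levels of both TNF-family ligands were low. Tnfsf9 had 49.9, 34.1 and 31.9 in Acute, 130.8, 127.0 and 255.2 in Chronic, and 76.1, 130.7 and 56.2 in ChronicMEKi, with ChronicMEKi overlapping Chronic. Tnfsf4 had 52.5, 70.1 and 130.5 in Acute and 480.2, 716.0 and 472.1 in Chronic. The ligands that fell between Chronic and Acute were Cd86 (-3.57), Lta, which encodes lymphotoxin alpha (-1.94, limma adjusted p = 3.05e-05), Tnfsf8, the CD30 ligand (-1.33, 2.2e-08), Icosl (-1.09, 0.00255) and Pvr (-0.78, 0.00015). Cd86 was at 21.4 to 37.5 in Chronic, under the filter's minimum, so it too passed only through the other groups and its p is not given. Tnfsf8 thus fell where its receptor gene Tnfrsf8 rose.

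In ChronicMEKi against Chronic, 4 ligands rose, Cd86 (1.29), Lta (0.82), Pvr (0.60) and Tnfsf8 (0.42), and Tnf fell by 0.42 (limma adjusted p = 0.0296), a call that library totals ended (-0.312, adjusted p = 0.118). The median of the 10 was 0.39, and of all genes tested 9.93% were called higher and 7.65% lower. Tnfsf9, Tnfsf4, Cd80, Icosl and Nectin2 did not pass (limma adjusted p = 0.166, 0.381, 0.203, 0.543 and 0.172). The count of ligands that rose was 2 without Chronic library 1, ChronicMEKi library 1 or ChronicMEKi library 3, and the call for Tnf was lost without Chronic library 2 or 3 or ChronicMEKi library 2.

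Of 20 other TNF receptor genes, 14 passed the filter. Against 18% of all genes called higher and 15.9% lower, 1 rose and 6 fell between Chronic and Acute. Their median was -0.37, beside 0.59 for the 10 costimulatory receptors. With library totals, against 1096 of all 15942 genes higher and 6846 lower, none rose and 9 fell, as on the deposited scale. With no filter 1 rose and 3 fell. The 3 largest called differences were falls of Tnfrsf26 (-2.26, limma adjusted p = 1.1e-07), of Tnfrsf13c, the BAFF receptor best known from B cells (-1.36), and of Tnfrsf14, the herpesvirus entry mediator that binds BTLA (-1.09, 0.0012). Tnfrsf10b, a TRAIL receptor, was the 1 that rose (0.82, limma adjusted p = 0.000168), and it did not pass with library totals (0.33, adjusted p = 0.0792). Between ChronicMEKi and Chronic, 5 rose and 1 fell, against 9.93% of all genes called higher and 7.65% lower. Fas, the death receptor, rose by 1.44 (limma adjusted p = 1.18e-05), with 465.6, 353.2 and 530.6 in Chronic and 1356, 1179 and 1110.3 in ChronicMEKi. Tnfrsf13c had a difference of 1.502 and Tnfrsf11b, at no more than 82.1 in any library, one of -2.51, and both are among these calls. Chronic libraries of Tnfrsf13c and ChronicMEKi libraries of Tnfrsf11b were all below the filter's minimum, so these genes passed only through the other groups and their p-values are not given. The count that rose was 2 without ChronicMEKi library 1 and 3 without ChronicMEKi library 3, and the 1 fall was lost without Acute library 1, Chronic library 2 or 3, or ChronicMEKi library 2 or 3.

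All 20 genes of TRAF signalling passed the filter. Between Chronic and Acute 5 rose and 6 fell, with a median of 0.09, against 18% of all genes called higher and 15.9% lower. Tnfaip3, which encodes the NF-kappa B inhibitor A20, had 411.7, 445.8 and 512.3 in Acute, 1472, 2123 and 1899 in Chronic, and 437.4, 368.3 and 509.3 in ChronicMEKi. It rose by 1.98 from Acute to Chronic (SE 0.178, limma adjusted p = 8.2e-08) and fell by 2.05 from Chronic to ChronicMEKi (limma adjusted p = 1.45e-07). Traf1, a TRAF adaptor that is itself induced by NF-kappa B, rose by 0.98 (limma adjusted p = 2.8e-07) and fell by 1.059 (limma adjusted p = 2.79e-07) in the same 2 comparisons.

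Tnfaip3 and Traf1 thus changed in the directions of Tnfrsf9 and Tnfrsf8, whereas Traf4 and Traf6 fell by 1.076 and 1.019 between Chronic and Acute (limma adjusted p = 4.28e-05 and 1.32e-07), and Traf4 rose by 1.22 from Chronic to ChronicMEKi (limma adjusted p = 2.25e-05). With library totals, 2 genes of the list were higher and 10 lower between Chronic and Acute, beside 1096 and 6846 of all 15942 genes. Traf2 and Map3k14, called higher with the trimmed mean, then changed sign without passing. Without Acute library 3, the 5 rises were 3. Between ChronicMEKi and Chronic, 2 genes rose, 3 fell and 15 did not pass, against 9.93% of all genes called higher and 7.65% lower. The list's median was -0.02, and without ChronicMEKi library 1 there was 1 rise.

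All 17 genes of CD28 and ICOS signalling passed the filter. Between Chronic and Acute 1 rose and 7 fell, with a median of -0.14, against 18% of all genes called higher and 15.9% lower. With library totals 14 were lower and none higher, beside 6846 and 1096 of all 15942 genes. Prkcq, which encodes protein kinase C theta, fell by 1.13 (SE 0.082, limma adjusted p = 4.48e-09), and Grap2, an adaptor also called GADS, by 0.87 (SE 0.118, 1.76e-05). Malt1, a protease of NF-kappa B signalling, was the 1 that rose (0.61, limma adjusted p = 3.94e-05), and with library totals it did not pass (0.122, adjusted p = 0.475). Cd28 and Icos themselves rose in this comparison with the trimmed mean.

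In ChronicMEKi against Chronic, 4 of the 17 rose and 4 fell, against 9.93% of all genes called higher and 7.65% lower. With library totals 6 rose and 0 fell, beside 1769 and 741 of all 15942 genes. Among the called differences were rises of Pik3r1, the regulatory subunit of phosphoinositide 3-kinase (0.75, limma adjusted p = 9.01e-06), and Pik3cb, a catalytic subunit (0.65, 0.0123). The median was 0.19, and without ChronicMEKi library 1 there were 2 rises.

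Of 7 inhibitory receptors listed beside the 10, not all of which share a ligand or locus with them, 6 passed the filter. Between Chronic and Acute 2 rose and 4 fell, with a median of -0.54, against 18% of all genes called higher and 15.9% lower. Pvrig was at 0 to 10.9 in every library. Pdcd1, which encodes PD-1, had 350.9, 372.3 and 332.3 in Acute and 1816, 2359.6 and 2184 in Chronic, and rose by 2.57 (SE 0.129, limma adjusted p = 4.31e-11). Tigit, which competes with Cd226 for PVR, rose by 1.43 (SE 0.198, limma adjusted p = 1.7e-05), whereas Cd96, which binds PVR as well, fell by 0.42 (limma adjusted p = 0.00328). Ctla4, Cd160 (-1.24, limma adjusted p = 5.19e-05) and Btla (-0.67, 0.000604) were the others that fell.

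In ChronicMEKi against Chronic, Ctla4, Cd160 (1.15, limma adjusted p = 0.000256) and Cd96 (0.64, 0.000134) rose, and Tigit (-0.87, 0.00423) and Btla (-0.40, 0.0427) fell. Over all genes tested, 9.93% were called higher and 7.65% lower. The call for Btla did not pass with library totals (-0.293, adjusted p = 0.276), and 1 of the 2 falls was lost without Chronic library 1 or 2 or ChronicMEKi library 1 or 3. Pdcd1 did not pass (0.20, SE 0.129, limma adjusted p = 0.335), with 2373, 2508 and 2398 in ChronicMEKi. Tigit and Cd226, the receptors of opposite effect for PVR, therefore both fell in ChronicMEKi against Chronic.

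**Figure D5:**
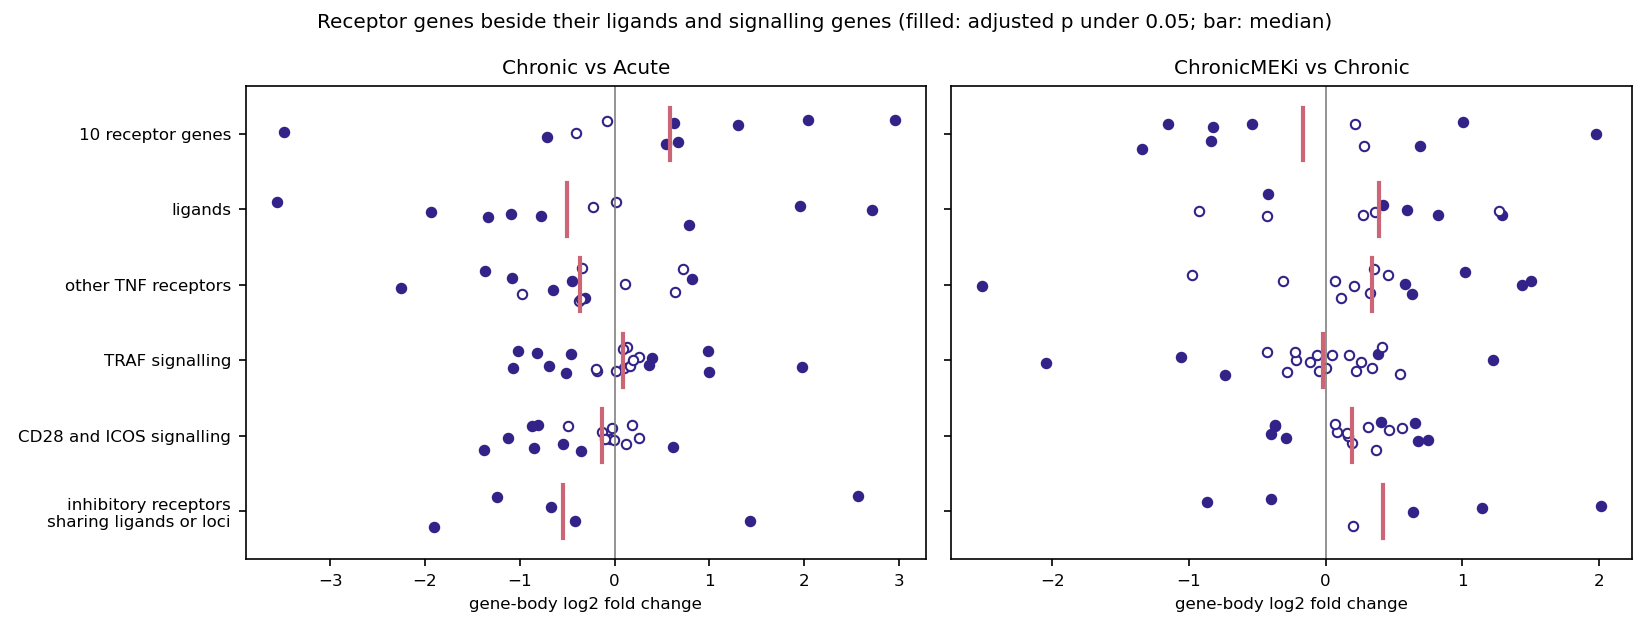
Gene-body log2 fold changes (horizontal axis) of the 10 receptor genes and of 5 gene lists (rows) in 2 comparisons (panels). Each point is a gene that passed the filter, filled where the limma adjusted p was under 0.05, and the red bar is the list's median, 0.59 for the receptors in Chronic vs Acute. Not all genes in the row of inhibitory receptors share a ligand or locus with the 10.

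Markers of the labelled cell type were present, but their level moved with the groups. The 2 CD8 genes summed to 5555 to 6428 signal in Acute, 2092 to 2293 in Chronic and 4458 to 5373 in ChronicMEKi, and both fell between Chronic and Acute and rose between ChronicMEKi and Chronic. The 6 T cell markers summed to 40397 to 49075, 28021 to 32343 and 38317 to 41050 in the same order. Of 5 B cell markers, 2 passed the filter, and the 5 summed to 533.6 to 564.8 in Acute, 189.4 to 219.2 in Chronic and 160.4 to 434.5 in ChronicMEKi. Cd79a, a subunit of the B cell receptor, had 340.7, 375.0 and 290.8 in Acute, 63.1, 154.8 and 101.2 in Chronic, and 191.4, 196.9 and 71.9 in ChronicMEKi. It fell between Chronic and Acute (-1.69, limma adjusted p = 0.00225), while Pax5, at 42.3 to 207.1, did not pass (-1.06, limma adjusted p = 0.114), and Ms4a1, which encodes CD20, was at 0 to 24.5.

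The 6 myeloid markers summed to 185.5 to 255.5 in Acute, 119.7 to 194.5 in Chronic and 97.7 to 263.9 in ChronicMEKi, and Lyz2 was at 0 in 5 of the 9 libraries. The 4 dendritic cell markers summed to 2725 to 3326, 5982 to 6590.4 and 5230 to 5876, nearly all of it Batf3, which activated T cells also express, and 1 of the 4 rose between Chronic and Acute. Of 3 CD4 and regulatory T cell markers, 2 were present, Cd4 and Zbtb7b. Foxp3, the regulatory T cell marker, had no row, as the rows lay on autosomes only, so its level is unknown. Cd4 and Zbtb7b summed to 1040.2 to 1367, 1054 to 1383 and 1729 to 2016, but they moved in opposite directions. Cd4 had 383.2 to 495.6 in Acute, 143.9 to 343.8 in Chronic and 101.0 to 141.0 in ChronicMEKi. Zbtb7b had 657.0 to 921.0, 910.5 to 1055.8 and 1588 to 1911 in the same order. In ChronicMEKi against each other group, 1 was called higher and 1 lower. The NK cell markers summed to 1263 to 1434, 970.6 to 1835 and 1568 to 1693, most of it Eomes, and the erythroid markers to no more than 29.7. Their part in the receptors' differences was not tested.

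By the Pearson correlation of log2 gene-body signal over the 9 libraries, among up to 12125 protein-coding genes, the gene most like each receptor was Dennd3 for Tnfrsf9 (r = 0.996), Rad51ap1 for Tnfrsf4 (0.996), Klhl22 for Tnfrsf18 (0.983), Capn5 for Tnfrsf1b (0.996) and Orc1 for Tnfrsf8 (0.995). For Tnfrsf25 it was Abhd8 (0.969), for Cd27 Akap8l (0.947), for Cd28 Ssh2 (0.991), for Icos D16Ertd472e (0.992) and for Cd226 Ctsc (0.991). These values are a description over 9 libraries in 3 groups, so they mostly reflect the group means, and each was the highest of many. Dennd3 differed by 3.48 between Chronic and Acute and by -1.42 between ChronicMEKi and Chronic, beside 2.96 and -1.16 for Tnfrsf9. A high correlation did not always go with a change of like size. In the same 2 comparisons, Capn5 had -2.41 and 3.34 beside -0.71 and 1.01 for Tnfrsf1b, and Orc1 had 0.87 and -0.39 beside 2.05 and -0.82 for Tnfrsf8.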

How the data were processed

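Nascent RNA of mouse CD8+ T cells was sequenced in 9 libraries, 3 each for Acute, Chronic and ChronicMEKi. The authors deposited 2 tables of signal per transcript, read here from their names as gene body and pause region. Values are whole multiples of a step per library, not counts, so depth in reads is unknown. The submitters' processing notes name FastQC 0.12.0, Trim Galore 0.6.10, STAR 2.7.0a, SAMtools 1.19.2, deepTools 0.1.9, R 4.1.2 and mm10; region coordinates and the use of strand are not given in the sources used here. Within 205 genes nested in others on the opposite strand, signal per kb relative to the host had a median of 0.624, beside 0.612 for 415 nested on the same strand, so the signal was taken as unstranded. Columns of unmapped samples numbered 0.

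Of 118482 rows, 117346 matched GENCODE M21 (GRCm38) with version, 383 without, and 753 did not. They lay on autosomes only. Genes were kept where 3 or more libraries reached a signal of 50, scaled with a trimmed mean without weights (30% of log ratios and 5% of levels) and fitted with limma 3.58.1 (R 4.3.3) on log2(signal + 5), which understates changes of weak genes, over all 9 libraries with intensity trend and robust moderation. Adjusted p-values are Benjamini-Hochberg over all genes. The procedure was tested on simulated data. Python 3.11.15 with pandas 2.3.3 joined the rows to the annotation. The receptors, gene lists and rules were chosen with earlier results of these data known. Named genes were the 10 receptors, each tested ligand and inhibitory receptor, the 3 largest called differences per other list in 2 comparisons, nearest tested neighbours, and the gene most correlated with each receptor. 1 gene that this rule takes is not reported here. Tnfrsf10b, Malt1, Traf2, Map3k14, Cd79a, Pax5 and Ms4a1 were named after their values were seen. Alternatives were other pseudocounts, filters, scalings and row choices, 2-group fits, a replicate block, and each library left out. RefSeq promoters were used for motifs; protein sequences were not used here.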

Additional observations from a re-analysis of the deposited data

How the results depend on the processing

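Of the receptors' gene-body differences, 256 values with 1 library left out kept their direction and side of the threshold, 3 then passed and 11 no longer did. Under the other settings 270 kept both, 15 then passed, 13 no longer did, and 2 reversed. Those 2 were Tnfrsf1b in ChronicMEKi against Acute, -0.083 with library totals and -0.042 on the deposited scale. In that comparison the median of all genes was 0.003 with the trimmed mean, -0.374 with library totals and -0.334 on the deposited scale.

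Counts of genes called fell with no filter on low values, to 1637 and 2642 in the gene body for ChronicMEKi against Chronic and against Acute, and to 494, 107 and 206 in the pause region for the 3 comparisons, where more genes are tested. The pause-region count between Chronic and Acute was 455 with a filter at 200 and 1723 with library totals. For pausing between Chronic and Acute, where no gene was called, 24 were with no filter, 3 with a filter at 200, 4 with library totals, 2 on the deposited scale, 1 with a pseudocount of 0.5, 22 with one of 20, 1 with only the 2 groups, and 6 with the start of largest signal, chosen after seeing the data. Pausing gave 2 for ChronicMEKi against Chronic with no filter and 1 against Acute with a pseudocount of 20.

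Relative to all genes, list medians between Chronic and Acute moved with no filter to 0.701 for the receptors, -0.108 for the ligands and -0.302 for the inhibitory receptors, whose median in ChronicMEKi against Chronic became 0.564. With a filter at 200 the ligands' medians were -0.946, and -0.748 for ChronicMEKi against Acute. The cause was not tested.

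With 1 library left out, pause-region counts ranged from 545 to 750, 109 to 279 and 233 to 512, and pausing between Chronic and Acute from 0 to 1. Medians relative to all genes ranged from 0.506 to 0.701 for the receptors and from -0.5 to -0.349 for other TNF receptors between Chronic and Acute, and from -0.703 to -0.412 for ligands between ChronicMEKi and Acute.

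The labels do not say whether replicate numbers pair the libraries. In deviations from the group means, the 9 same-numbered pairs correlated at -0.53 to 0.1, and 2 of 9 libraries were closest to their own number. With 3 libraries per group, such correlations cannot decide whether the libraries were paired. With the replicate block, 5497, 2956 and 4263 genes were called in the gene body, and the Tnfrsf25 rise in ChronicMEKi against Chronic had an adjusted p of 0.0904 with limma. Depth in reads is unknown, so the counting error of weak genes such as Tnfrsf25 cannot be given.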
